A study of Mus musculus with 9 samples.

Results

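The deposited comparison of the mmpp and stroke groups in mouse thalamus held 1021 genes, of 4277 genes listed in either of the authors' tables. All of its rows were taken, and each gives the mean TPM of the mmpp group and of the stroke group, where TPM is a unit of expression scaled by gene length and library size. Of the 1021 genes, 815 also stood in the authors' table of stroke against sham, and 206 did not. The stroke group, the mmpp group and the sham group each had 3 samples of thalamus from wild-type C57/BL mice, taken on day 7. The design names photothrombotic surgery, in which a dye excited by light clots blood vessels, and injection of a melanin nanozyme, a particle that acts like an enzyme. The labels do not spell out mmpp, do not say which groups were operated on or injected, and do not state dose, sex, age or whether a sample was 1 animal or a pool.

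The thalamus relays sensory signals to the cortex, and its relay neurons send their axons to the cortex, where photothrombotic lesions are often placed. After a cortical lesion, thalamic neurons that lose their targets degenerate, while microglia, the resident phagocytes of the brain, and infiltrating myeloid cells divide, take up debris and secrete signals. Melanin-like particles are known to scavenge reactive oxygen species. The comparison asks how the thalamus of the mmpp group differed from that of the stroke group.

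As a look at the tissue label, the authors' deposited tables gave stroke means of 24.0 TPM for Tcf7l2, 386 TPM for Calb2, 12.8 TPM for Shox2 and 20.7 TPM for Slc17a6, all markers of thalamic neurons. Their sham means were 64.4, 792, 37.5 and 63.7 TPM. Genes on marker lists of other regions were also present in stroke, with Gabrd (cerebellum) at 68.8, Th (midbrain) at 12.7 and Ttr (choroid plexus) at 372 TPM. These levels cannot by themselves place the tissue. Marker lists of astrocytes, oligodendrocytes, endothelium, neutrophils and pan-neuronal genes had no member listed for mmpp against stroke. Of all genes in the authors' adjustment, only 4.83% were listed. A gene can be missing from the table because it missed a limit or was not tested. No values of single libraries were analysed here, so the spread between samples cannot be given, and every mean printed here was computed by the authors.

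Far more genes were listed lower in the mmpp group than higher, 757 against 264. Every row has a p-value below 0.05 and a log2 ratio of 1 or more in size. A gene is said here to have risen or fallen only if the authors' q-value was below 0.05. The q-values were adjusted over 19616 genes. Of these, 8 passed a q-value of 0.05, a percentage of 0.0408, with 6 lower (0.0306%) and 2 higher (0.0102%). Listed genes within that adjustment made up 4.83% of all genes adjusted, 3.58% lower and 1.24% higher. At a p-value under 0.05 alone, the ranks recovered from the q-values reached 1187 of the 19616 genes. If no gene differed, about a 0.05 share of all genes would still be under that limit. Many of the listed genes may therefore not differ between the groups. The recovered ranks reached 332 at a p-value under 0.01 and 71 at a p-value under 0.001.

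**Figure D1:**
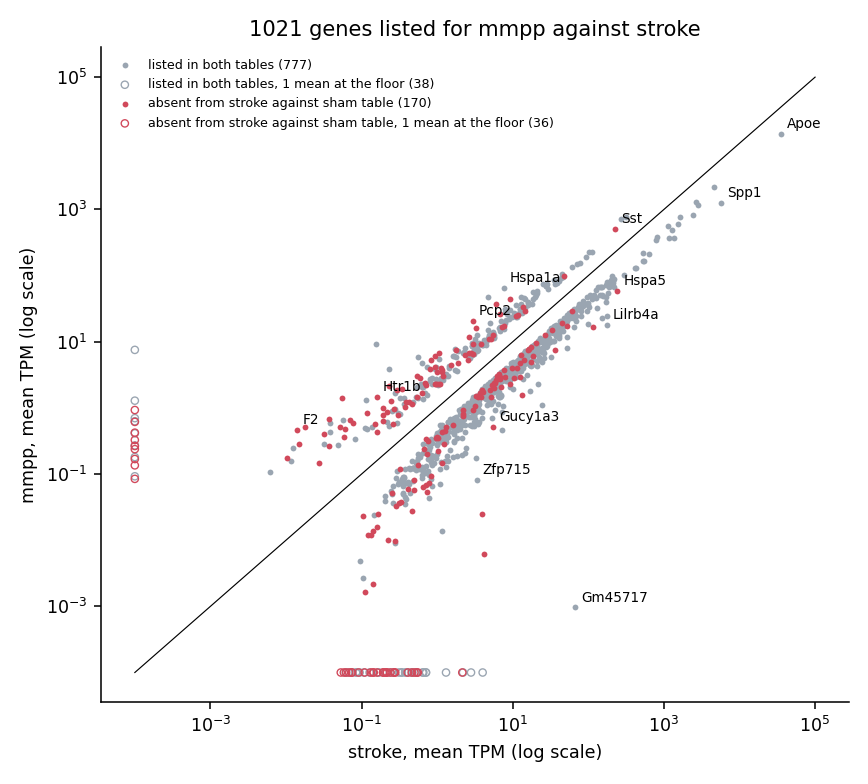
Mean TPM of the mmpp group (y axis, log scale) against the stroke group (x axis, log scale) for the 1021 listed genes, with the line of equal values. Grey points are the 777 genes in both tables with both means above the floor, red points the 170 absent from the stroke against sham table, and open circles the 74 genes with a mean at the floor of 0.0001 TPM. The empty band along the line is made by the log2 limit of the table.

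Of the 8 genes that passed, 6 fell. The smallest p-value was that of Zfp715, a zinc finger protein gene, which fell from 3.32 TPM in stroke to 0.0821 TPM in mmpp per the authors' deposited table (log2 ratio -5.34, q = 1.47e-12). Gucy1a3, the alpha subunit of the soluble guanylate cyclase that senses nitric oxide, fell from 5.51 to 0.516 TPM per the authors' deposited table (log2 ratio -3.42, q = 8.67e-08). Taok1, a kinase upstream of stress-activated MAP kinases, fell from 3.25 to 0.177 TPM per the authors' deposited table (log2 ratio -4.20, q = 0.000832). These 3 genes were modestly expressed in stroke and near 0 in mmpp.

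Fmn1, a formin that nucleates actin filaments, fell from 3.04 to 0.620 TPM per the authors' deposited table (log2 ratio -2.29, q = 0.0219). Lilrb4a, an inhibitory receptor of myeloid cells, fell from 174 to 18.0 TPM under 1 of its identifiers in the authors' deposited table (log2 ratio -3.27, q = 0.0344). The symbol stands on another identifier as well, at 32.0 and 5.87 TPM with a q-value of 0.263 in the authors' deposited table, and reads may be split between them. The lincRNA Gm13431 fell from 2.81 TPM to the floor per the authors' deposited table (q = 0.00931), so no fold is given.

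Only Nr4a3 and Htr1b rose among the 8 genes. Nr4a3, an orphan nuclear receptor induced as an immediate early gene, rose from 1.07 to 5.56 TPM per the authors' deposited table (log2 ratio 2.37, q = 0.00253). Htr1b, the serotonin 1B receptor that inhibits transmitter release at axon terminals, rose from 0.160 to 1.48 TPM per the authors' deposited table (log2 ratio 3.21, q = 0.0110). Gucy1a3 and Htr1b were both absent from the stroke against sham table, and the other 6 genes stood in both tables. The sham means of Nr4a3 and Taok1 in the authors' deposited table were 5.75 and 0.178 TPM, and the sham mean of Zfp715 was 1.25 TPM. Those of Fmn1, Lilrb4a and Gm13431, also in both tables, are not given here, so the printed sham means do not stand for all 6 genes. Both tables use the same stroke libraries, so the 3 levels are side by side only as a description.

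**Figure D2:**
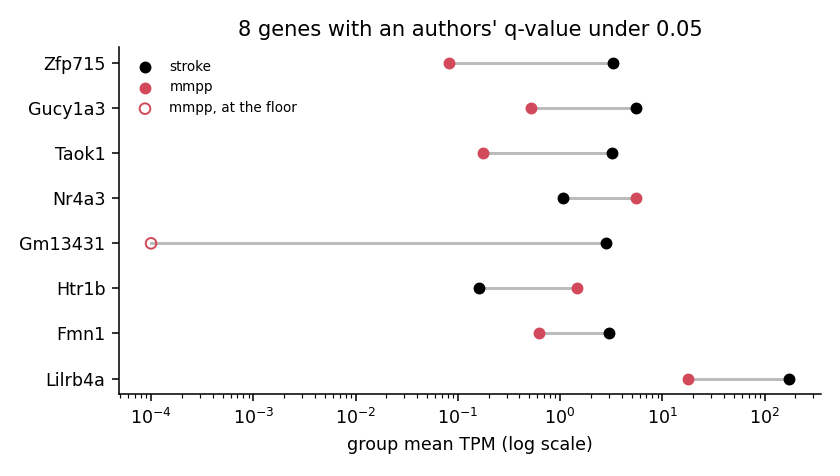
Group mean TPM (log scale) of the 8 genes with an authors' q-value under 0.05, ordered by p-value, with stroke in black and mmpp in red. Nr4a3 and Htr1b stand to the right in mmpp, and the other 6 stand to the left, with Gm13431 at the floor.

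Ranked by difference in TPM, the losses were led by Apoe and Spp1, and several of the next genes are known from phagocytes. The 1021 listed genes held 8.39% of all TPM in stroke and 3.74% in mmpp, from sums of the deposited means. The lower genes went from 81220 to 30816 TPM in sum, and the higher genes from 2661 to 6604 TPM. Apoe, which carries lipids between cells, was at 35055 TPM in stroke and 13662 TPM in mmpp in the authors' deposited table (log2 ratio -1.36, q = 0.650). That single gene made up 42.4% of the summed loss, and the 10 largest losses made up 72.5%. In bulk tissue, fewer cells of a type and less RNA per cell cannot be told apart.

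The next losses were Spp1, Ftl1, B2m, Cd68, Actb, Cd9, Fcer1g, Ctss and Cotl1, and none had a q-value under 0.05. Spp1, osteopontin, was at 5764 and 1245 TPM in stroke and mmpp in the authors' deposited table (p = 0.00150, q = 0.328). Cd68, a lysosomal protein of phagocytes, was at 2398 and 814 TPM in the authors' deposited table (q = 0.720). Fcer1g, the signalling chain of activating Fc receptors, was at 1543 and 601 TPM in the authors' deposited table (q = 0.726). B2m, the light chain of MHC class I, and Actb, cytoplasmic actin, are often used as reference genes, and both were listed lower here.

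Gains in TPM were smaller and spread more widely. Usmg5, a small subunit of the mitochondrial ATP synthase, was at 317 TPM in stroke and 777 TPM in mmpp in the authors' deposited table (q = 0.551). It made up 11.7% of the summed gain, and the 10 largest gains made up 46.3%. Resp18, a protein of neuroendocrine secretory granules, was at 271 and 718 TPM in the authors' deposited table (q = 0.471). Nptxr, a neuronal pentraxin receptor at synapses, was at 102.5 and 228 TPM in the authors' deposited table (q = 0.769). The fall in the listed share would by itself move an unlisted gene up by 0.07 on the log2 scale.

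**Figure D3:**
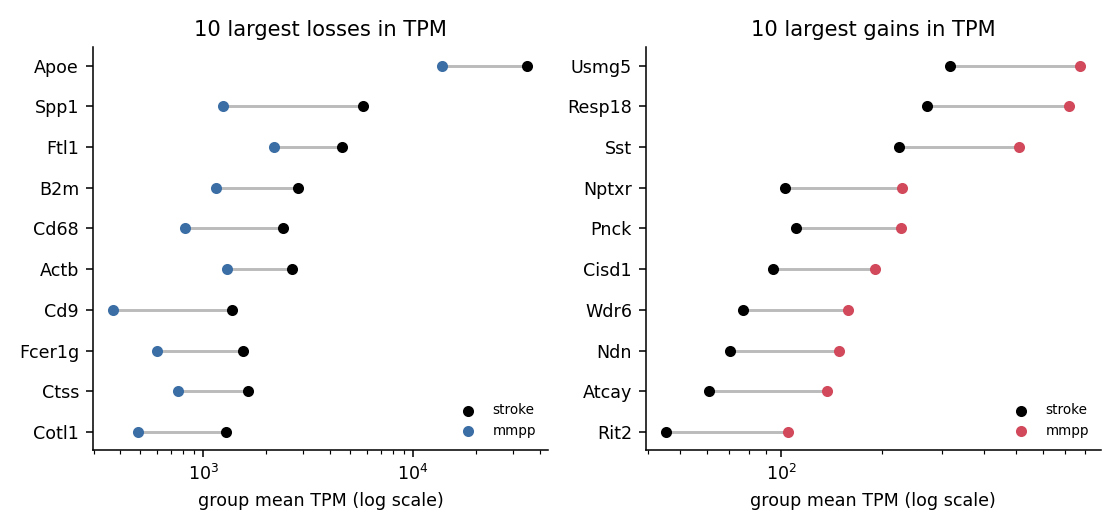
Group mean TPM (log scale) of the genes with the 10 largest losses (left) and the 10 largest gains (right), with stroke in black and mmpp in blue or red. The largest loss, that of Apoe, is from 35055 to 13662 TPM, and the largest gain, that of Usmg5, from 317 to 777 TPM.

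Of 23 paired immunoglobulin-like receptors of myeloid cells, 9 were listed, all lower, and 1 of them, Lilrb4a, had a q-value under 0.05. The other 14 were not listed. Of all genes adjusted, 3.58% were listed lower, and 17 of the 23 receptors stood in the stroke against sham table. The median log2 ratio of the listed receptors was -2.20, beside -1.51 over all genes listed lower and -1.31 over all listed genes. That median counts both identifiers of Lilrb4a as separate entries. Pirb, an inhibitory receptor that binds MHC class I, was at 13.5 and 2.77 TPM in stroke and mmpp in the authors' deposited table (q = 0.262). Pira2, an activating partner of the same family, was at 1.46 and 0.232 TPM in the authors' deposited table (q = 0.510). Pirb and its close relatives such as Pira2 are near-identical in sequence, so their single values are uncertain.

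The promoters of 3 of these receptors, Pirb, Pira2 and Lilra6, share a stretch that holds a PU.1 box, searched as GAGGAAGT on both strands in windows from 250 bases before to 50 bases after each start. PU.1 is a transcription factor of the myeloid lineage. The stretches below are from RefSeq on GRCm38.p6, read 5′ to 3′ on the strand of the gene, all upstream of the start, with the box in capitals. The genes were chosen to show the receptor family beside Spp1 and Aim2.
Pirb, chr7:3720475-3720522, minus strand: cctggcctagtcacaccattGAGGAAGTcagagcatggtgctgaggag
Pira2, chr7:3845172-3845219, minus strand: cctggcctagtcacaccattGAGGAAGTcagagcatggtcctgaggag
Lilra6, chr7:3915624-3915671, minus strand: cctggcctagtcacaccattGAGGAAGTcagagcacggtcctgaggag
Spp1, chr5:104434978-104435025, plus strand: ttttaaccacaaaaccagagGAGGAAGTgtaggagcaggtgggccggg
Aim2, chr1:173420471-173420518, plus strand: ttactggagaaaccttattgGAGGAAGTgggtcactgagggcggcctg

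Promoters were matched for 671 of the 1021 rows. The box was present in 3.69% of all 27025 genes with a promoter, in 9.58% of 501 genes listed lower and in 2.96% of 169 genes listed higher. Among genes listed lower it was found in 10.3% of 436 in both tables and in 4.62% of 65 absent from the stroke against sham table. Other motifs were searched too, with shares here of lower, higher and all genes in turn. A cell cycle homology region was in 25.5%, 15.4% and 20.2%, and an interferon response element in 6.79%, 6.51% and 3.99%. An E2F site was in 2.00%, 0.592% and 1.24%, and a CCAAT box in 38.5%, 37.3% and 41.1%. A heat shock element was in 0.200%, 0% and 0.662%. These shares are a description of letters, with no test, and the family members above count as separate genes.

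Genes of inflammatory signalling and lytic cell death were listed lower, none with a q-value under 0.05. Of 11 genes of necroptosis and pyroptosis, 7 were listed and all were lower, beside 3.58% of all genes adjusted. In the stroke against sham table, 10 of the 11 were listed. Aim2, a sensor of cytoplasmic DNA, was at 16.7 and 4.61 TPM in stroke and mmpp in the authors' deposited table (q = 0.314). Mlkl, the effector of necroptosis, was at 1.88 and 0.516 TPM in the authors' deposited table (q = 0.510). Casp1, the protease that activates interleukin 1 beta, was at 16.2 and 4.79 TPM in the authors' deposited table (q = 0.544).

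The list of the interleukin 1 family and related genes had 5 of 14 members listed lower, TNF family and receptors 4 of 18, and chemokines 3 of 19. Those 5 are Il1a, Il1b, Il1rn and the inflammasome genes Casp1 and Nlrp3. Casp1 and Nlrp3 were also counted among the necroptosis and pyroptosis genes, so the counts are not separate. Ccl3, a chemokine that draws myeloid cells, was at 171 and 39.3 TPM in the authors' deposited table (p = 0.000496, q = 0.204). Tnf was at 3.55 and 0.888 TPM in the authors' deposited table (q = 0.334). Only 1 of 20 interferon response genes was listed, Oasl2, at 32.3 and 16.0 TPM in the authors' deposited table (q = 0.772). MHC class II had 5 of 10 members listed lower, led by Cd74, the invariant chain, at 299 and 100.5 TPM in the authors' deposited table (q = 0.471). NADPH oxidase genes, which make superoxide in phagocytes, had 3 of 10 members lower, and of 19 antioxidant genes none was listed. As only 4.83% of all genes adjusted were listed, the counts for antioxidant and interferon response genes are near the overall share.

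Microglial and lipid genes followed the same direction in part. Of 20 disease-associated microglia genes 7 were lower, and of 14 core microglia genes only Sall1, P2ry13 and Gpr34 were listed, all lower. Of all genes adjusted, 3.58% were listed lower. The stroke against sham table held 19 of these 20 and 13 of these 14 genes. Lpl, which frees fatty acids from lipoproteins, was at 132 and 31.9 TPM in the authors' deposited table (q = 0.510). Lipid handling had 7 of 16 members lower and 1 higher, none with a q-value under 0.05, and 15 of the 16 stood in the stroke against sham table. Apoe and Lpl were counted in both the lipid and the disease-associated microglia list. Of 12 monocyte and macrophage markers, 4 were lower, among them Ccr2 at 1.86 and 0.353 TPM in the authors' deposited table (q = 0.510). The exception was Lyve1, at 0.0486 and 0.275 TPM in the authors' deposited table (q = 0.793).

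All listed members of the division and matrix lists were lower, none with a q-value under 0.05. Of 25 cell cycle genes, 17 were listed and all were lower, beside 3.58% of all genes adjusted that were listed lower. All 25 also stood in the stroke against sham table. Of the 4071 genes of that table, 815 were listed for mmpp against stroke. Prr11 was at 3.86 and 0.880 TPM in the authors' deposited table (q = 0.0972), and Mki67, the proliferation marker, at 5.21 and 1.44 TPM in the same authors' deposited table (q = 0.440). Of 38 listed genes with the deposited term cell division, all 38 were lower, beside 757 of all 1021 listed genes and 640 of the 815 in both tables. All 25 listed genes in the deposited class of the cytoskeleton were lower too, among them kinesins of mitosis, actin regulators and Fmn1, the one that fell. This class shares genes with the cell cycle list, such as Prc1, Kif20a and Kif23, so the counts are not separate.

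Of 24 genes of matrix and matrix proteases, 9 were lower, beside 3.58% of all genes adjusted. In the stroke against sham table, 22 of the 24 were listed. Mmp13, a collagenase, was at 7.46 and 1.08 TPM in the authors' deposited table (q = 0.336), and Dcn, decorin, at 40.6 and 11.2 TPM in the same authors' deposited table (q = 0.336). Fn1, fibronectin, was at 150.00 and 23.2 TPM in the authors' deposited table (q = 0.510). Fibroblast markers Col1a1, Dcn and Postn were all in this direction, 3 of 12 markers listed.

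**Figure D4:**
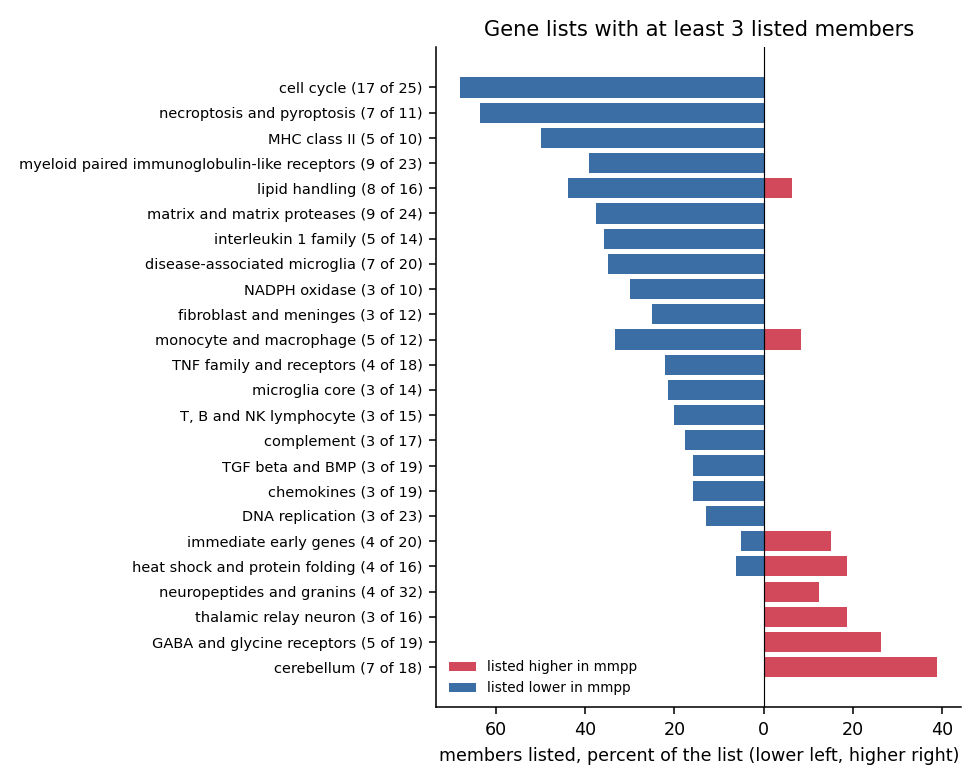
Share of each gene list that was listed higher (red, to the right) or lower (blue, to the left) in mmpp against stroke, in percent of the list, for lists with at least 3 listed members. Cell cycle genes reach furthest to the left with 17 of 25, and cerebellar genes furthest to the right with 7 of 18.

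The deposited term synapse held 17 higher and 6 lower listed genes, whereas the table as a whole held more lower ones. Of 19 GABA and glycine receptor genes 5 were listed, all higher and none with a q-value under 0.05, with a median log2 ratio of 1.72 beside 1.43 over all genes listed higher. One of them, Gabra6, is also a cerebellar marker. No member was listed of 23 glutamate receptor and 16 acetylcholine receptor genes, and 1 of 24 voltage-gated channel genes was listed. These counts are near the overall share, as 4.83% of all genes adjusted were listed. Glrb, the beta subunit of the glycine receptor, was at 15.8 and 38.9 TPM in stroke and mmpp in the authors' deposited table (q = 0.752). Of 16 thalamic relay markers, 3 were listed higher. Slc17a6, the vesicular glutamate transporter of relay neurons, was at 20.7 and 55.3 TPM in the authors' deposited table (q = 0.772).

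Heat shock genes Hspa1b and Hspa1a had the next smallest p-values in the higher direction after Nr4a3 and Htr1b. These inducible chaperones are near-identical in sequence and were at 4.69 and 47.0 TPM and at 7.69 and 64.3 TPM in the authors' deposited table (q = 0.0572 and 0.0707). Dnajb1, their co-chaperone, was at 27.2 and 70.5 TPM in the authors' deposited table (q = 0.574). Of 16 heat shock and protein folding genes 4 were listed, these 3 higher and Hspa5 lower, at 242 and 58.6 TPM in the same authors' deposited table (q = 0.145). Of 20 immediate early genes 4 were listed, 3 higher and 1 lower. Beside these counts of heat shock and immediate early genes, 4.83% of all genes adjusted were listed. Fos was at 7.89 and 27.7 TPM and Fosb at 1.61 and 6.17 TPM in the authors' deposited table (q = 0.342 and 0.387). Both belong to the immediate early group with Nr4a3, while Egr3, another listed member, had 0.279 TPM in stroke and a floor mean in mmpp in the authors' deposited table.

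The 206 genes absent from the stroke against sham table were nearer to balance in direction than the genes in both tables. Of them, 89 were listed higher and 117 lower, so 43.2% were higher, beside 21.5% of the 815 genes in both tables. At a p-value under 0.01, 32.8% of 64 absent genes were higher. Absence says that a gene missed a limit of that table or was not tested there, not that stroke left it alone. In sum of the deposited means, the 206 genes held 1422 TPM in stroke and 1423 TPM in mmpp, 0.142% of all TPM in each. Their gains summed to 680 TPM and their losses to -678 TPM. Single genes weigh heavily in these sums, as Sst was at 224 TPM in stroke and 512 TPM in mmpp, and Hspa5 at 242 and 58.6 TPM. The 815 genes in both tables went from 82460 to 35997 TPM.

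The absent genes were lower in level than the others. Their median of the larger group mean was 1.47 TPM, beside 6.63 TPM for genes in both tables, and 42.7% stayed under 1 TPM, beside 17.4%. A mean stood at the floor for 36 of 206 genes, beside 38 of 815. Larger ratios were also more frequent, with 35 of 170 genes at 8-fold or more where no mean was at the floor, beside 43 of 777. Protein-coding genes made up 73.3%, beside 85.0%. Only 9 of the 206 had an authors' q-value under 0.25, beside 52 of 815.

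The difference in direction between the sets varied with level. Under 0.3 TPM, 9 of 42 absent genes were higher, close to 8 of 32 in both tables. From 1 to 3 TPM, 21 of 33 absent genes were higher, beside 27 of 148. From 3 to 10 TPM the counts were 20 of 47 and 47 of 188, and above that range the absent set held few genes.

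**Figure D5:**
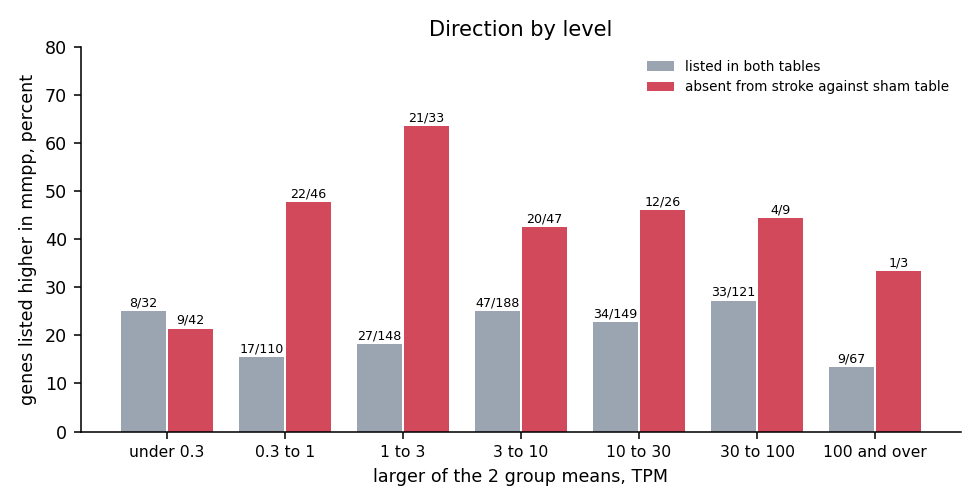
Percent of genes listed higher in mmpp (y axis) by the larger of the group means (x axis, TPM), for genes in both tables (grey) and absent from the stroke against sham table (red), with the counts above each bar. The red bars stand above the grey ones in every range except under 0.3 TPM.

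Absent genes listed higher included peptide and receptor genes of neurons. Sst, the peptide somatostatin of inhibitory interneurons, was at 224 TPM in stroke and 512 TPM in mmpp in the authors' deposited table (log2 ratio 1.19, q = 0.769), the largest gain among absent genes. Vip, another interneuron peptide, was at 0.538 and 2.995 TPM in the authors' deposited table (q = 0.796), and Prok2, a secreted peptide of circadian output, at 0.0554 and 1.41 TPM in the same authors' deposited table (q = 0.336). Nppc, a natriuretic peptide, was at 2.67 and 6.67 TPM in the authors' deposited table (q = 0.780). Of 32 neuropeptide genes 4 were listed, all higher, beside 1.24% of all genes adjusted that were listed higher. Of these, 3 were absent genes, beside 206 of all 1021 listed genes.

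Receptor genes among the absent genes went in both directions. Under the deposited term G protein-coupled receptor activity, 4 absent genes were listed higher and 4 lower. Sstr5, a somatostatin receptor, was at 0.387 and 1.22 TPM in the authors' deposited table (q = 0.773), and Agtr1a, the angiotensin II receptor, at 0.0598 and 0.482 TPM in the same authors' deposited table (q = 0.561). Fpr1, the formyl peptide receptor of phagocytes, was listed lower at 0.702 and 0.0686 TPM in the authors' deposited table (q = 0.510), and P2ry10 at 0.221 and 0.0102 TPM in the same authors' deposited table (q = 0.606). The deposited pathway neuroactive ligand-receptor interaction held 9 absent genes, 6 higher and 3 lower. Genes with the term extracellular space were 12 higher of 19 among absent genes and 14 of 91 in both tables. Such counts rest on few genes, most of them with q-values far from 0.05.

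The Sst promoter holds a cyclic AMP response element, searched as TGACGTCA on both strands. It is shown because it is a textbook element of this gene, together with that of Pcsk1, a prohormone convertase in both tables at 1.71 and 3.76 TPM in the authors' deposited table (q = 0.700).
Sst, chr16:23890865-23890912, minus strand: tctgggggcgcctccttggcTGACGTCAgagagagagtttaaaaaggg
Pcsk1, chr13:75089759-75089806, plus strand: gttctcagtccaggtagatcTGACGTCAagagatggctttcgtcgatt

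The element was found in 6 of 169 promoters of genes listed higher, or 3.55%, and in 8 of 501 of genes listed lower, or 1.60%, beside 2.03% of all genes. As the sequence is its own reverse complement, both strands give the same matches. An AP-1 site, searched as TGANTCA, was found in 11.2% of higher and 11.6% of lower genes, beside 8.97% of all genes.

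Markers of the cerebellum, a region outside the thalamus, were listed higher. Of 18 such markers 7 were listed, all higher, 5 of them absent genes, and none had a q-value under 0.05. Of all genes adjusted, 1.24% were listed higher. One of the 7, Neurod1, is also on the cortex and hippocampus list. Their summed level was 20.6 TPM in stroke and 73.0 TPM in mmpp, and none of the 7 was at the floor. Most of both sums came from Calb1 and Kcnd2, so the sums are not a measure of cerebellar RNA. Pcp2, a Purkinje cell protein, was at 2.94 and 20.7 TPM in the authors' deposited table (log2 ratio 2.81, q = 0.566). Cbln3, made by granule cells, was at 0.230 and 2.14 TPM in the authors' deposited table (q = 0.214), and Gabra6, the granule cell GABA-A subunit, at 0.0705 and 0.656 TPM in the same authors' deposited table (q = 0.406). The markers Calb1 and Kcnd2, which other brain regions also express, were at 12.95 and 37.5 TPM and at 3.597 and 9.48 TPM in the authors' deposited table (q = 0.524 and 0.730). The part of cerebellar tissue in these values was not tested.

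Absent genes listed lower had only Gucy1a3 under a q-value of 0.05. Hspa5, the main chaperone of the endoplasmic reticulum, was at 242 and 58.6 TPM in the authors' deposited table (log2 ratio -2.05, p = 0.000229, q = 0.145), the largest loss in TPM among them. Of 14 unfolded protein response genes none was listed, beside 4.83% of all genes adjusted. Pcdhgb1, a clustered protocadherin that shares exons with its neighbours, was at 114 and 16.9 TPM in the authors' deposited table (q = 0.523), and its value is uncertain for that reason. Ptprj, a receptor tyrosine phosphatase, was at 13.4 and 1.55 TPM in the authors' deposited table (q = 0.155). Vps13d, a lipid transfer protein, was at 36.3 and 7.60 TPM in the authors' deposited table (q = 0.769).

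Ncoa3 and Thoc2 were also among the absent genes with the smallest p-values. Ncoa3, a nuclear receptor coactivator, was at 10.4 and 2.85 TPM in the authors' deposited table (q = 0.166). Thoc2, a subunit of the complex that exports mRNA, was at 1.02 and 0.225 TPM in the authors' deposited table (q = 0.263). Under the deposited transcription class, 6 of 9 absent genes were lower, beside 117 of all 206 absent genes.

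Ratio alone ranked a different set of genes first. With floor means kept apart, the smallest log2 ratio in the table was that of Gm45717, at 66.9 and 0.000962 TPM in the authors' deposited table (log2 ratio -16.09, q = 0.139), and it lies over Ifitm2 and Ifitm5 in the annotation. Of the 10 smallest ratios 7 overlapped another gene, 5 stayed under 1 TPM and 5 were absent genes. Of the 10 largest ratios 7 overlapped another gene, 7 stayed under 1 TPM and 6 were absent genes. The largest ratio was that of AC157822.1, a microRNA gene inside Rn7s2, at 0.157 and 9.31 TPM in the authors' deposited table (log2 ratio 5.89, q = 0.650). The largest among protein-coding absent genes was that of F2, prothrombin, at 0.0138 and 0.459 TPM in the authors' deposited table (q = 0.741). Overlapping genes of either strand cannot be told apart where the counting of strand is not given, and 52.3% of listed genes overlapped another gene, beside 45.9% of all annotated genes.

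A mean at the floor of 0.0001 TPM was listed for 74 genes, 57 in mmpp and 17 in stroke. The other group's mean was under 1 TPM for 67 of the 74, and 62 had a q-value of 1. The highest level opposite a floor in mmpp was 3.997 TPM, for Gm10800, in the authors' deposited table (q = 0.744). Rn7s6, a small cytoplasmic RNA gene, had the highest level opposite a floor in stroke, 7.53 TPM in the authors' deposited table (q = 0.823). Such a mean can be a failed estimate, and among the 74 only Gm13431 had a q-value under 0.05.

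MicroRNA genes were listed in 4 rows, 1 of them AC157822.1. Mir3072, an absent gene, was at 6.03 and 37.8 TPM in the authors' deposited table (q = 0.632), and Mir142b, on the strand opposite the myeloid microRNA Mir142, at 22.3 and 5.49 TPM in the same authors' deposited table (q = 0.661). Mir6948 was at 21.95 and 5.83 TPM in the authors' deposited table (q = 0.726). The mature sequences show that the arms share no seed, bases 2 to 8, in capitals, from RefSeq on GRCm38.p6.
mmu-miR-3072-5p, chr12:109747893-109747914, plus strand: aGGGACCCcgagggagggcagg
mmu-miR-3072-3p, chr12:109747928-109747949, plus strand: uGCCCCCUccaggaagccuucu
mmu-miR-142b, chr11:87756906-87756925, minus strand: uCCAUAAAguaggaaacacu
Mir3072 lies within Mirg on the same strand, and an mRNA library does not measure the mature forms, so these values belong to the gene rows only.

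The limits of the table pass through many genes. The smallest absolute log2 ratio was 1.001, and 101 genes had a value of at most 1.1. The largest p-value was 0.04999, that of Ftl1, ferritin light chain, at 4565 and 2161 TPM in the authors' deposited table, and 134 genes had a p-value of at least 0.04. Genes just outside the limits were not analysed here.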

How the data were processed

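RNA from 9 thalamus samples in 3 groups was measured. TRIzol extraction and a SMARTER mRNA library kit were used, per the labels' protocols. Bowtie2 2.2.3, TopHat2 2.0.12, HTSeq 0.6.0 and GRCm39 appear, with no role stated, per the submitters' processing notes. The testing program and strand setting are not given in the sources used here. Per the file headers, the authors deposited group mean TPM, a log2 ratio, a p-value and a q-value per gene. The log2 ratio was checked to be that of the deposited TPM means, with no pseudocount. Library counts were not analysed here, so depth is unknown and no test of the groups was run. Replicates may be technical, so p-values measure only the spread between these samples.

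The number of genes adjusted, 19616, was recovered from p-values and q-values as whole ranks (tolerance 0.001), in a step tested on simulated data. A TPM of 0.0001 was treated as a floor. Python 3.11.15, pandas 2.3.3, numpy 2.4.6 and matplotlib 3.10.9 were used. Overlaps and gene types come from GENCODE M21, promoters and microRNAs from RefSeq on GRCm38.p6, matched by identifier or symbol.

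Named genes were all with a q-value under 0.05, the 10 largest and smallest log2 ratios, gains and losses in TPM, the 6 highest opposite a floor in each direction, absent genes by p, ratio and TPM, and up to 4 members per list by p. Some others were chosen after their values were seen, among them Zc3h11a, Rn7s2, Pcsk1 and receptor genes. The members and the 57 lists were chosen with earlier results of these data known. Lists had no test. Some genes that the rule names are not reported here. Of the 57, 24 had members only lower, 9 only higher, 5 both and 19 none. Alternatives were other limits on p, q, ratio and level, pseudocounts, and leaving out floor or clone-named genes.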

Additional observations from a re-analysis of the deposited data

How the results depend on the processing

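The 8 genes with an authors' q-value under 0.05 became 18 under 0.1 and 5 under 0.01, 8 with a larger mean of at least 1 TPM and 7 without floor genes. The share of genes listed higher, 25.9%, was 20.9% of 335 genes at p under 0.01 and 22.5% of 71 at p under 0.001. Under the other limits it lay between 25.3% and 26.5%. Among absent genes it was 43.2%, with 32.8% of 64 at p under 0.01, and between 43.2% and 49.2% under the other limits tried. The listed share of TPM, 8.39% in stroke and 3.74% in mmpp, was 2.48% and 1.49% without the 10 genes with the largest TPM difference, and 1.63% and 0.690% at p under 0.01. The cause of these shifts was not tested beyond the smaller sets of genes. With log2(TPM + 1) differences, 534 of 1021 genes and 71 of 206 absent genes kept an absolute value of at least 1. Of 173 named genes above the floor, 65 moved by 0.5 log2 or more with that pseudocount and 36 with 0.1. No paired analysis was possible because the tables used here hold group means and values per library were not analysed here, and leaving out a replicate was not possible for the same reason. Depth and library spread are unknown and limit every value.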

Other observations

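Among the 57 genes with a floor mean in mmpp were several lymphocyte genes at low stroke levels, none with a q-value under 0.05. A floor mean can be a failed estimate. Pou2af1, a coactivator of B cells, was at 0.217 TPM in stroke in the authors' deposited table, and Tcrg-C2, a T cell receptor constant gene, at 0.268 TPM in the same authors' deposited table. Trbv29 and Iglc3 were at 0.641 and 0.533 TPM in stroke in the authors' deposited table. Cd4, which microglia and macrophages can also express, was at 3.04 and 0.743 TPM in the authors' deposited table (q = 0.263). Of 15 lymphocyte markers 3 were listed, all lower, beside 4.83% of all genes adjusted that were listed. The other markers were not listed, among them Cd79b, at 7.41 TPM in stroke.

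Pairs of listed genes that overlap in the annotation did not always share a direction. Of 11 pairs on the same strand, 7 had the same direction and 4 had opposite ones, and of 11 pairs on opposite strands, 10 had the same direction. Zc3h11a was at 2.61 TPM in stroke and 11.9 TPM in mmpp, while Gm38394, which lies over it, was at 4.21 and 0.00623 TPM in the authors' deposited table. Rn7s2 was at 537 and 165 TPM, and AC157822.1 inside it at 0.157 and 9.31 TPM, in the authors' deposited table. The part of read assignment between such pairs was not tested.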
